A study of Homo sapiens with 16 samples.

Results

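The miR-221 and miR-222 cluster was followed as the entries hsa-miR-221-5p with hsa-miR-221-3p and hsa-miR-222-5p with hsa-miR-222-3p, which are the mature arms, and as hsa-mir-221 and hsa-mir-222, which are the hairpins. These entries were chosen by name with earlier results of these data known, so their p-values are not those of a blind choice. All 6 were found among the 915 entries of the miRNA table. Small RNA was sequenced from 2 established human lines, PC3 of prostate cancer and MDA-MB-231 of breast cancer (labelled MDA-231), and from the extracellular vesicles (EVs) in the serum-free medium each had conditioned. EVs were isolated by next-gen ATPS, by UC or with the exoRNeasy kit. Next-gen ATPS collects EVs in a dextran-rich phase that is then digested with dextranase, UC is ultracentrifugation, and exoRNeasy binds EVs to a column and is labelled Qiagen. The study proposes that ATPS brings along cell-free RNA as well, so next-gen ATPS libraries may hold RNA from outside EVs. The libraries labelled VC were read as UC, although the labels do not spell VC out. The 8 groups were PC3 cells, PC3 next-gen ATPS EVs, PC3 UC EVs, PC3 exoRNeasy EVs and the same materials of MDA-MB-231, with 2 libraries each and 16 in all. Every library was labelled genotype WT and treatment None, so all groups share an unmodified and untreated state. Each line is a single established line, and nothing in the labels ties both libraries of a group to different cultures, so the p-values reflect library-to-library spread that may be technical. RNA of cells, next-gen ATPS EVs and UC EVs was extracted with TRIzol while exoRNeasy EVs went through the kit's own column, so isolation and extraction cannot be told apart for that method.

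A miRNA gene is transcribed as a longer RNA that folds into a hairpin, the hairpin is cut out by Drosha and cut again by Dicer, and the resulting duplex gives a 5p arm and a 3p arm, of which usually only one stays in Argonaute to repress messenger RNAs. The cluster is known for abundant 3p arms in aggressive cancer cells, where its known targets include CDKN1B, an inhibitor of the cell cycle, and KIT, a receptor kinase. Because both 3p arms begin alike, they are counted as a single family of regulators, while the 5p arms are usually regarded as the strands that are discarded.

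The sequences below are those on which the comparison of arms and hairpins rests, from RefSeq (GRCh38.p14), with capitals at bases 2 to 8, the seed that pairs with target RNAs.
hsa-miR-221-3p: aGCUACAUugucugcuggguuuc
hsa-miR-222-3p: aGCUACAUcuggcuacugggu
hsa-miR-222-5p: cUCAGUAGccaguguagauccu
The 3p arms of both genes shared the seed GCUACAU, and among the 2370 mature names of the RefSeq table only these 2 carried it. They were identical over their first 8 bases and at 11 of 21 positions compared from the 5′ end. A sequence of hsa-miR-221-5p was not among those used here, so it is named only.

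The hairpins are shown next, with the mature arms above in capitals, because the hairpin entries were counted beside the arms.
hsa-mir-221: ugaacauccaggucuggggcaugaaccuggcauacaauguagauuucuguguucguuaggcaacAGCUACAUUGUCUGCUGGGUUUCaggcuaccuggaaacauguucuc
hsa-mir-222: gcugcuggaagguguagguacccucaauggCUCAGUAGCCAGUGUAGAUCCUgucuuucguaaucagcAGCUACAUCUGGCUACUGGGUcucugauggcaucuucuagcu
Both hairpins were 110 bases long, lie on the minus strand and are separated by 748 bases, at chrX:45746157-45746266 for hsa-mir-221 and chrX:45747015-45747124 for hsa-mir-222. The longest stretch they shared was 9 bases, which spans the common seed. In GENCODE v44 both lie inside the long noncoding RNA gene MIR222HG on the same strand, where hsa-mir-222 falls in an intron and hsa-mir-221 overlaps an annotated exon. The study kept only reads far shorter than a hairpin, so a hairpin entry counts short reads placed on the hairpin and not whole precursors. How a read that overlaps both an arm and its hairpin was assigned is not given in the sources used here, and reads of the MIR222HG exon could not be told apart from reads of hsa-mir-221.

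Values were in CPM, reads per 1000000 miRNA reads, and each was a whole multiple of what 1 read is worth in its library, which gave back the reads. A library held 153 to 97408 miRNA reads, so 1 read was worth 10.3 to 6536 CPM. The second MDA-MB-231 cell library held the fewest, 153 reads, and values without it are given beside the limma differences and tested shares of the cluster that use it. The labels call both lines epithelial. Of the epithelial marker miRNAs listed (the miR-200 family with miR-141 and miR-429, and miR-205) 5 entries were in the table and summed to between 0 and 16 reads in a library, so these markers were near 0 in the cells and EVs of both lines. Entries of other cell types were also rare. Of the blood and serum list only hsa-miR-486-5p was in the table, with 0 to 12 reads, the muscle and fibroblast list had 0 entries, and the neuron list had 2 entries with 0 to 82 reads summed.

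Reads of the cluster made up a large part of the miRNA reads of cells and a smaller part of those of EVs. The 6 entries together took 24.2% and 23.8% of miRNA reads in the PC3 cell libraries, and 3.38% to 6.70% with a median of 5.21% in the 6 PC3 EV libraries. In MDA-MB-231 they took 38.6% and 31.4% in cells, and 6.10% to 19.8% with a median of 9.68% in the 6 EV libraries. Every EV library was below both cell libraries of its line. The difference, EVs minus cells averaged over the lines, was -21.5 percentage points (two-sided exact permutation test of cell and EV labels within each line, 784 arrangements, p = 0.00128, the smallest it can give, adjusted p = 0.00408 over the 8 share tests), and it lay between -23.3 and -19.7 points with any 1 library left out. Within the same material the share was lower in PC3 than in MDA-MB-231 by 7.07 points on average (difference -7.07, exact permutation p = 0.00154, the smallest possible here, adjusted p = 0.00408), and the difference was -7.97 without the second MDA-MB-231 cell library. In these bulk libraries, fewer cells or vesicles of a kind and less RNA in each cannot be told apart, and the part each plays in these shares was not tested. Each value is also a share of all miRNA reads, so more reads on other entries lower it, which was not tested either.

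Within the cluster, most reads were miR-222 reads in every library but the first of MDA-MB-231 exoRNeasy EVs. The 3 miR-222 entries took 86.9% and 86.8% of the cluster's reads in PC3 cells, 88.1% and 87.5% in MDA-MB-231 cells, and 79.3% to 93.2% in PC3 EVs. In MDA-MB-231 they took 81.7% to 91.2% in the next-gen ATPS and UC EV libraries but 39.2% and 57.0% in the exoRNeasy EV libraries, where hsa-mir-221 filled most of the rest. This share is given as a description and was not tested.

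**Figure D1:**
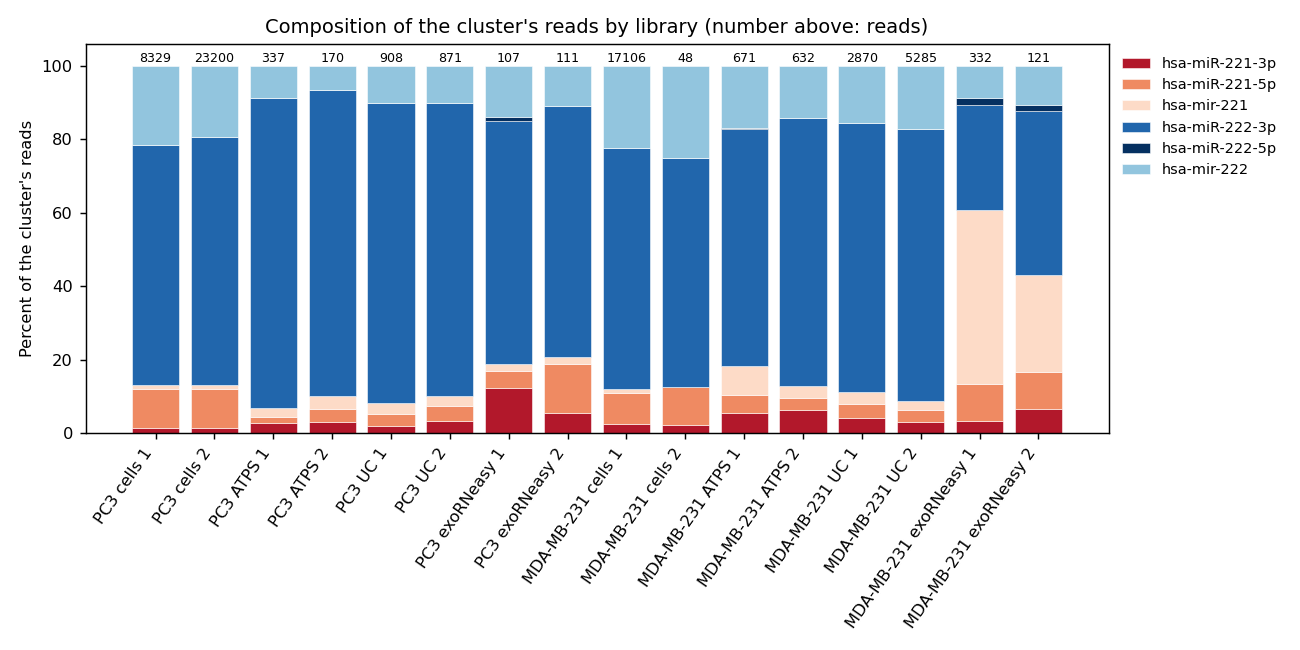
Percent of the cluster's reads (vertical axis, linear from 0) that fell on each of the 6 entries, 1 bar per library, with the number of cluster reads above each bar. hsa-miR-222-3p is the largest segment in every library but the first of MDA-MB-231 exoRNeasy EVs, and hsa-mir-221 stands out in both libraries of that group.

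hsa-miR-222-3p, the main arm of miR-222, was the highest or second highest of all entries in the cells. In PC3 the libraries held 158009 and 160664 CPM in cells, and 56694 and 30789 (next-gen ATPS), 50917 and 47882 (UC) and 22454 and 30303 (exoRNeasy) in EVs. In MDA-MB-231 they held 252941 and 196078 CPM in cells, and 50069 and 95160 (next-gen ATPS), 84998 and 146337 (UC) and 19443 and 27245 (exoRNeasy) in EVs. All 12 EV libraries lay below the cell libraries of their line, and the exoRNeasy EVs were the lowest group in both lines. How many of all entries separated between groups in such ways was not counted, here or for the entries below. In order of mean level the groups ran from MDA-MB-231 cells through PC3 cells, MDA-MB-231 UC EVs, MDA-MB-231 next-gen ATPS EVs, PC3 UC EVs, PC3 next-gen ATPS EVs and PC3 exoRNeasy EVs to MDA-MB-231 exoRNeasy EVs. Of these neighbours, the libraries of MDA-MB-231 cells and PC3 cells, of PC3 cells and MDA-MB-231 UC EVs, and of PC3 next-gen ATPS EVs and PC3 exoRNeasy EVs did not overlap, and those of all other neighbours did.

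hsa-mir-222, the hairpin, was also higher in cells. PC3 cells had 52234 and 46105 CPM, and their EVs 5769 and 2385 (next-gen ATPS), 6228 and 6132 (UC) and 4744 and 4785 (exoRNeasy). MDA-MB-231 cells had 86568 and 78431 CPM, and their EVs 13067 and 18538 (next-gen ATPS), 17994 and 34012 (UC) and 5935 and 6559 (exoRNeasy). No EV library reached the cell libraries of its line, and within each of the 4 materials both MDA-MB-231 libraries were above both PC3 libraries.

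hsa-miR-221-5p, the arm usually regarded as the discarded strand, was the more abundant arm of miR-221 in cells. PC3 cells had 25594 and 25142 CPM, against 1194 and 1301 in EVs by next-gen ATPS, 2122 and 2549 by UC, and 1581 and 5981 by exoRNeasy. MDA-MB-231 cells had 32297 and 32680 CPM, the latter from 5 reads, against 3816 and 4120 in EVs by next-gen ATPS, 4609.8 and 6436 by UC, and 6754 and 6055 by exoRNeasy. The cell libraries of both lines were again above all EV libraries.

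hsa-miR-221-3p, the arm that shares its seed with hsa-miR-222-3p, did not separate cells from EVs. PC3 cells had 3457 and 3511 CPM, against 1790.3 and 1084 in EVs by next-gen ATPS, 1163 and 1929 by UC, and 4111 and 2392 by exoRNeasy, with 5 to 28 reads behind an EV value. MDA-MB-231 cells had 9759 and 6536 CPM, the latter from a single read, against 4278 and 8239 in EVs by next-gen ATPS, 4650.2 and 5762 by UC, and 2251 and 4036 by exoRNeasy. In each line at least 1 EV library lay above the lower cell library.

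hsa-mir-221, the other hairpin, had another pattern. PC3 cells had 2644 and 2751 CPM, against 1591 and 1301 in EVs by next-gen ATPS, 1711 and 1516 by UC, and 633 and 797 by exoRNeasy, these last from 2 reads in each library. MDA-MB-231 cells had 3967 CPM in the first library and 0 in the second, where 0 of 153 reads allows up to 19608 CPM, against 6129 and 4120 in EVs by next-gen ATPS, 3761 and 5201 by UC, and 32337 and 16145 by exoRNeasy. All 6 EV libraries of MDA-MB-231 were above all 6 of PC3. The exoRNeasy EVs were thus the lowest group in PC3 and the highest in MDA-MB-231. hsa-miR-222-5p had 13 reads over the 16 libraries and 0 in 10 of them, where 0 reads allows 30.8 to 19608 CPM. Of its reads, 8 fell in MDA-MB-231 exoRNeasy EVs, at 1228 and 1009 CPM.

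**Figure D2:**
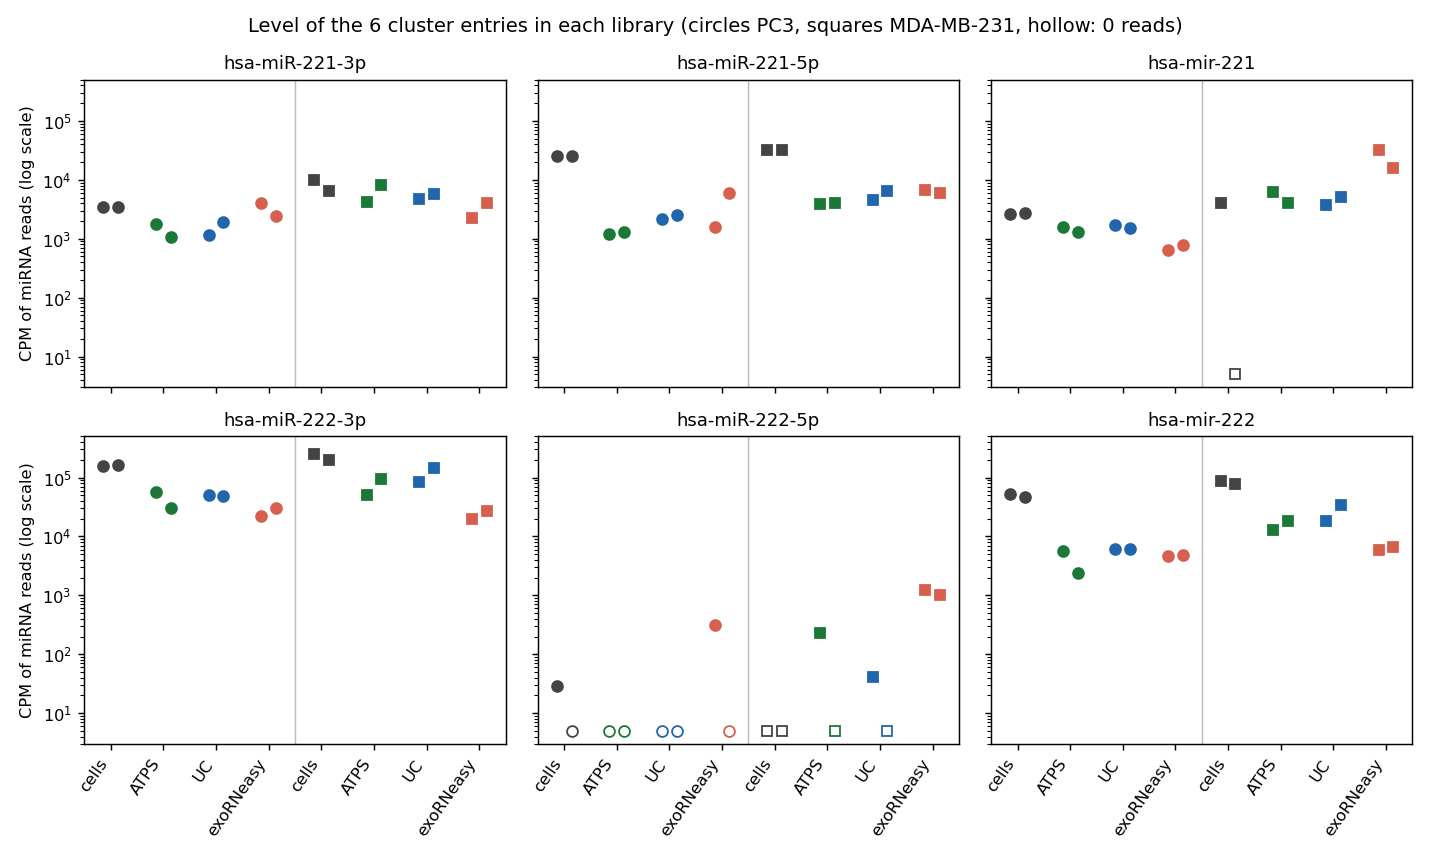
Level of each of the 6 entries in CPM (vertical log axis) in the 16 libraries, 1 point per library and 2 per group, PC3 on the left and MDA-MB-231 on the right of each panel. Hollow symbols at the bottom mark libraries with 0 reads, and cells lie above every EV library of their line for hsa-miR-222-3p, hsa-miR-221-5p and hsa-mir-222. How many of all entries have this order was not counted.

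Levels were compared on log2(CPM + 1), a scale on which a difference against a library with 0 reads depends on the pseudocount of 1, with limma over 566 entries and p-values adjusted over all of them (Benjamini-Hochberg). Both MDA-MB-231 cell libraries enter the estimated spread of every comparison, and with either of them left out more of all entries were called in most comparisons. The cluster entries that gained a call without the second library gained it without the first too. The shares of all entries called, here and below, are those with both. In PC3, 8.83% of all entries were called between EVs and cells, at an adjusted p under 0.05. Of these 50 entries 46 were lower in EVs and 4 higher, and the median log2 difference over all entries was -1.61. Of the 6 cluster entries 3 were called, all lower in EVs. hsa-mir-222 fell by 3.36 (SE 0.43, limma adjusted p = 0.000237), which is 9.82 times less mean CPM. hsa-miR-221-5p fell by 3.61 (SE 0.57, limma adjusted p = 0.0011), or 10.3 times less mean CPM. hsa-miR-222-3p fell by 2.08 (SE 0.32, limma adjusted p = 0.0011), or 4.0 times less mean CPM. For hsa-miR-221-3p the log2 difference was -0.90 (95% interval -2.28 to 0.49, limma adjusted p = 0.481), and for hsa-mir-221 it was -1.19 (-5.51 to 3.13, limma adjusted p = 0.775, and 0.0299 without the second MDA-MB-231 cell library, which enters only the estimated spread here). hsa-miR-221-5p lost its call without the first (-3.60, limma adjusted p = 0.108) or the second PC3 cell library (-3.63, limma adjusted p = 0.0959). On the recovered reads edgeR gave -4.24 for hsa-miR-221-5p (edgeR adjusted p = 7.72e-13). It also called hsa-miR-221-3p (-1.57, edgeR adjusted p = 0.0357) and hsa-mir-221 (-1.90, edgeR adjusted p = 0.014). The median over 67 entries with a mean of at least 1000 CPM was -1.19 with edgeR and -0.62 with limma. With no filter on low values limma called none of the 3, with an adjusted p of 0.102 for hsa-mir-222 and for hsa-miR-221-5p and of 0.154 for hsa-miR-222-3p.

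In MDA-MB-231, 3.89% of all entries were called between EVs and cells, and hsa-mir-222, hsa-miR-221-5p and hsa-miR-222-3p were again the 3 of 6 called, all lower in EVs. hsa-mir-222 fell by 2.62 (SE 0.43, limma adjusted p = 0.00289), 5.15 times less mean CPM, and hsa-miR-222-3p fell by 1.99 (SE 0.32, limma adjusted p = 0.00289), 3.18 times less. hsa-miR-221-5p fell by 2.65 (SE 0.57, limma adjusted p = 0.0238), 6.13 times less. hsa-miR-221-3p had a log2 difference of -0.82 (95% interval -2.20 to 0.57, limma adjusted p = 0.644), and of -1.11 without the second cell library (limma adjusted p = 0.266). hsa-mir-221 had one of 6.98 (limma adjusted p = 0.0851), a size set by the 0 reads of the second cell library. The difference was 3.67 with a pseudocount of 100 (limma adjusted p = 0.0386) and 1.01 without that library. The mean CPM of EVs was 5.69 times that of cells, but the same 0 enters the cell mean of 1983 CPM. The first cell library alone held 3967 CPM, and the EV groups had means of 24241 (exoRNeasy), 5124 (next-gen ATPS) and 4481 CPM (UC). Without the second cell library the 3 called entries stayed called, at -2.69 for hsa-mir-222 (limma adjusted p = 0.0088), -2.17 for hsa-miR-222-3p (limma adjusted p = 0.0212) and -2.64 for hsa-miR-221-5p (limma adjusted p = 0.0223). edgeR did not call hsa-miR-222-3p (-1.50, adjusted p = 0.0632), and with UC EVs alone limma called neither it (-0.998, adjusted p = 0.278) nor hsa-mir-222 (-1.74, adjusted p = 0.191). With no filter on low values the limma adjusted p was 0.431 for hsa-mir-222 and 0.486 for hsa-miR-222-3p, and with array weights it was 0.156 and 0.205. The call of hsa-miR-221-5p was lost without either PC3 cell library or either MDA-MB-231 exoRNeasy library (limma adjusted p = 0.0545 to 0.0765). It was also lost under 5 of 14 other settings, namely with no filter (-2.65, limma adjusted p = 0.562), array weights (-2.65, limma adjusted p = 0.205), UC EVs alone (-2.58, limma adjusted p = 0.137), exoRNeasy EVs alone (-2.34, limma adjusted p = 0.0821) and scaling to mature names (-2.07, limma adjusted p = 0.0655).

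The difference between EVs and cells was then compared between the lines. Of all entries 0.177% were called, and of the cluster none. The interaction was -0.09 for hsa-miR-222-3p (95% interval -1.07 to 0.89, limma adjusted p = 0.944) and -0.74 for hsa-mir-222 (-2.05 to 0.57, limma adjusted p = 0.566), and differences inside these intervals could not be told from 0. Without the second MDA-MB-231 cell library these values were 0.094 and -0.67 (limma adjusted p = 0.988 and 0.719). For hsa-mir-221 it was -8.18 (limma adjusted p = 0.238) with the second MDA-MB-231 cell library and -2.20 without it (limma adjusted p = 0.0608).

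Between the cells of the lines 4.24% of all entries were called and none of the cluster. The log2 difference, PC3 minus MDA-MB-231, was -0.48 for hsa-miR-222-3p (95% interval -1.33 to 0.36, limma adjusted p = 0.565) and -0.67 without the second MDA-MB-231 cell library (limma adjusted p = 0.672), while edgeR gave 0.63 (adjusted p = 0.741) and DESeq2 0.60 (adjusted p = 0.847). In EVs, averaged over the 3 methods, 7.24% of all entries were called, and hsa-mir-222 was the member called, lower in PC3 (-1.49, SE 0.30, limma adjusted p = 0.00853), 3.20 times less mean CPM, a call that was lost under 5 of 14 other settings. It was -0.78 with quantile normalization (limma adjusted p = 0.115), -1.49 without the filter (limma adjusted p = 0.548), and -2.07, -2.0 and -0.39 with next-gen ATPS, UC and exoRNeasy EVs alone (limma adjusted p = 0.0639, 0.0638 and 1.0). hsa-miR-222-3p differed by -0.57 (95% interval -1.06 to -0.08, limma adjusted p = 0.155). Mature names took 72.3% to 82.5% of the miRNA reads in PC3 EVs and 36.7% to 61.4% in MDA-MB-231 EVs, and with each library scaled to its mature names alone the difference was -1.30 for hsa-miR-222-3p (limma adjusted p = 0.00125), -2.0 for hsa-miR-221-3p (limma adjusted p = 0.00984) and -2.04 for hsa-miR-221-5p (limma adjusted p = 0.00489). On the deposited scale hsa-miR-221-3p differed by -1.27 and hsa-miR-221-5p by -1.32, neither of them called, and the limma adjusted p without the second MDA-MB-231 cell library was 0.0135 and 0.0152. hsa-mir-221 differed by -2.76 (limma adjusted p = 0.299) and, without the second MDA-MB-231 cell library, which changes the estimated spread and not this difference, its limma adjusted p was 4.95e-05. On the recovered reads edgeR called hsa-mir-221 there (-2.88, adjusted p = 2.3e-07).

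**Figure D3:**
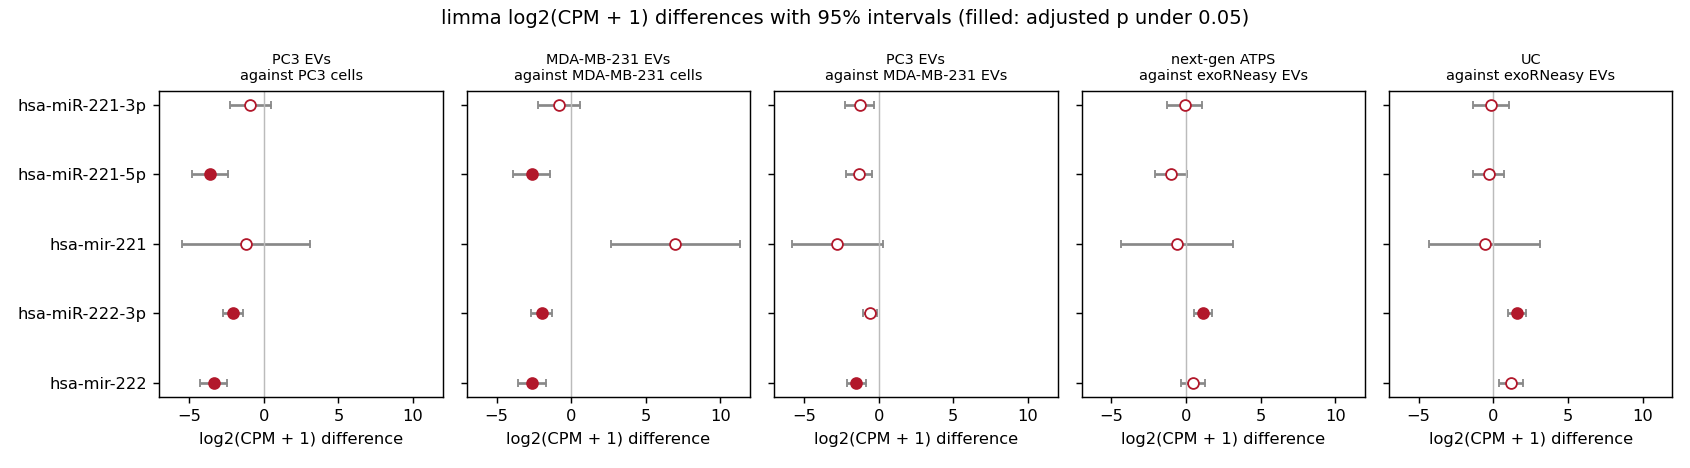
Differences of log2(CPM + 1) with 95% intervals from limma (horizontal axis) for 5 entries in 5 comparisons, first group minus second, filled where the adjusted p was under 0.05. The wide interval of hsa-mir-221 goes with its 0 in the second MDA-MB-231 cell library, and hsa-miR-222-5p is left out for its 13 reads.

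Isolation methods were compared over both lines. Between next-gen ATPS and UC EVs 0.0% of all entries were called by limma, with 50 of 566 at an unadjusted p under 0.05, while edgeR called 2 entries and DESeq2 22. hsa-miR-222-3p had a log2 difference of -0.47 there (95% interval -1.06 to 0.13, limma adjusted p = 0.649). DESeq2 gave -1.51 (DESeq2 adjusted p = 0.0362), and hsa-miR-222-3p was one of 3 members it called there with hsa-miR-221-5p and hsa-mir-222. Over 67 entries with a mean of at least 1000 CPM, the median there was -0.24 with limma and -1.15 with DESeq2. Of the 22 entries DESeq2 called, 21 were lower in next-gen ATPS EVs. Between UC and exoRNeasy EVs 7.77% were called, and hsa-miR-222-3p was higher in UC EVs by 1.60 (SE 0.28, limma adjusted p = 0.0137), 3.32 times the mean CPM, with all 4 UC libraries above all 4 exoRNeasy libraries. It lost that call without the first MDA-MB-231 exoRNeasy library (1.48, limma adjusted p = 0.0708). hsa-mir-222 differed by 1.18 in the same direction (SE 0.37, limma adjusted p = 0.073), and 7 of 11 other settings called it, edgeR among them (2.11, adjusted p = 0.00475). Between next-gen ATPS and exoRNeasy EVs 2.83% were called, and hsa-miR-222-3p was higher in next-gen ATPS EVs by 1.13 (SE 0.28, limma adjusted p = 0.0456). That call was lost with 13 of 16 libraries left out in turn (limma adjusted p up to 0.178) and with edgeR (1.58, adjusted p = 0.149).

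The balance between the arms of miR-221 differed between cells and EVs, a comparison within 1 gene in which the other entries of a library cancel. In PC3 cells hsa-miR-221-3p took 11.9% (95% exact binomial interval 9.96% to 14.1%) and 12.3% (11.1% to 13.5%) of the reads of both arms. In PC3 EVs it took 60.0% and 45.5% with next-gen ATPS, 35.4% and 43.1% with UC, and 72.2% and 28.6% with exoRNeasy, from 11 to 65 reads a library. In MDA-MB-231 cells it took 23.2% (21.3% to 25.2%) and 16.7% (0.421% to 64.1%, 1 of 6 reads). In MDA-MB-231 EVs it took 52.9% and 66.7% with next-gen ATPS, 50.2% and 47.2% with UC, and 25.0% and 40.0% with exoRNeasy, from 20 to 326 reads a library. These intervals cover counting error only. All 12 EV libraries were above the cell libraries of their line, the first MDA-MB-231 exoRNeasy library by the least, and the mean difference was 31.2 percentage points (35.4 in PC3, 27.1 in MDA-MB-231, two-sided exact permutation test within lines, p = 0.00255, adjusted p = 0.00408). Leaving out 1 library at a time gave 28.7 to 33.4 points, also without the library with 6 reads. Between the lines the share did not separate, with a mean difference of -1.62 points within materials (exact permutation p = 0.85) and -2.44 without the library with 6 reads.

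The same share could be formed for 16 of the 74 genes with both arms in the table, those with at least 5 reads in at least 1 cell library and 3 EV libraries of each line. In 6.25% of these genes, which is miR-221 alone, every EV library with that depth was above every such cell library of its line in both lines. The median change over the 16 genes was -0.44 points. The opposite pattern, all EV libraries below, was met by hsa-miR-27a alone, where the 3p share went from 99.0% to 31.4% in PC3 and from 99.3% to 38.5% in MDA-MB-231. For miR-222, the other gene of the cluster, the 3p arm took nearly all reads of both arms in cells and EVs, on average 99.8% in PC3 EVs and 98.3% in MDA-MB-231 EVs, and the libraries overlapped.

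**Figure D4:**
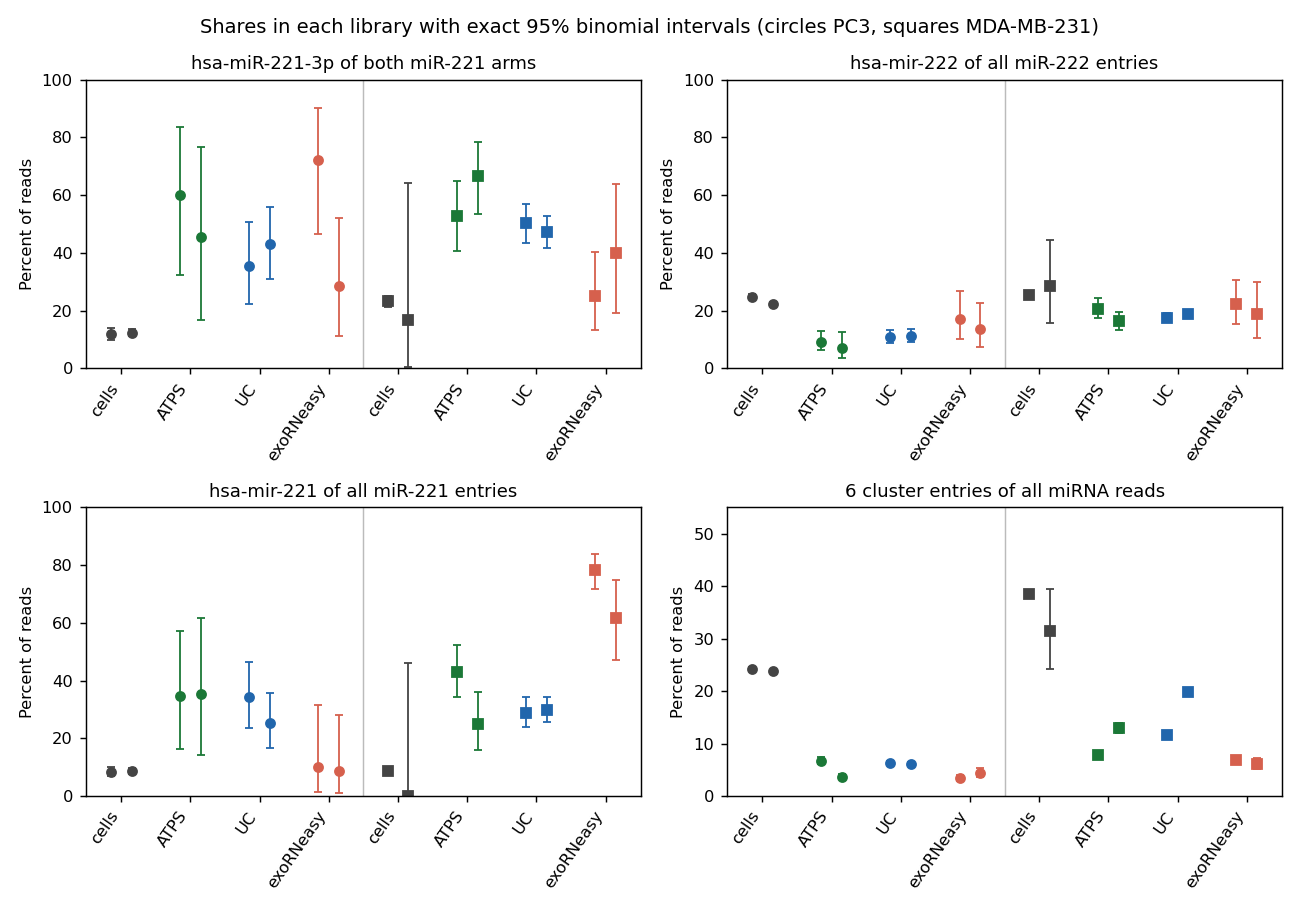
Shares of reads in percent (vertical axes) in each of the 16 libraries with exact 95% binomial intervals, for hsa-miR-221-3p of both miR-221 arms, each hairpin entry of all entries of its gene, and the cluster of all miRNA reads. The hsa-miR-221-3p share is above the cells in every EV library, and the hsa-mir-221 share is highest in MDA-MB-231 exoRNeasy EVs.

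The hairpin of miR-222 took a smaller part of its gene's reads in EVs than in cells. hsa-mir-222 held 24.8% and 22.3% of the reads of all miR-222 entries in PC3 cells, and 7.19% to 17.2% with a median of 11.1% in the 6 EV libraries. In MDA-MB-231 it held 25.5% and 28.6% in cells, and 16.3% to 22.3% with a median of 18.8% in EVs. The share of hsa-miR-222-3p, which makes up nearly all of the rest, was 75.1% and 77.7% in PC3 cells and 81.6% to 92.8% in PC3 EVs. In MDA-MB-231 it was 74.5% and 71.4% in cells and 73.1% to 83.7% in EVs, so here the first exoRNeasy library, at 73.1%, lay between the cell libraries. The mean difference in the hsa-miR-222-3p share was 9.22 points (exact permutation p = 0.00255, adjusted p = 0.00408), and 8.45 to 9.99 points with any 1 library left out. It was also 7.32 points higher in PC3 than in MDA-MB-231 within materials (exact permutation p = 0.00154, the smallest possible, adjusted p = 0.00408), and 6.93 points without the second MDA-MB-231 cell library.

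Over 31 of 209 genes with enough reads for a hairpin share, 9.68% had every EV library below every cell library in both lines, which is 3 genes, hsa-mir-222, hsa-mir-330 and hsa-mir-663b. The opposite was met by 2 genes, hsa-mir-21 and hsa-mir-1248, and the median change was 0.31 points. hsa-mir-222 thus shared this pattern with other hairpins. The miR-221 hairpin did not move with it: hsa-mir-221 held 8.34% and 8.76% of miR-221 reads in PC3 cells and 8.70% to 35.3% in PC3 EVs. In MDA-MB-231 it held 8.62% of 2042 reads and 0 of 6 reads in cells, and 25.0% to 78.2% in EVs, with 78.2% and 61.5% in the exoRNeasy libraries. This share was singled out after its values were seen and was not tested.

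**Figure D5:**
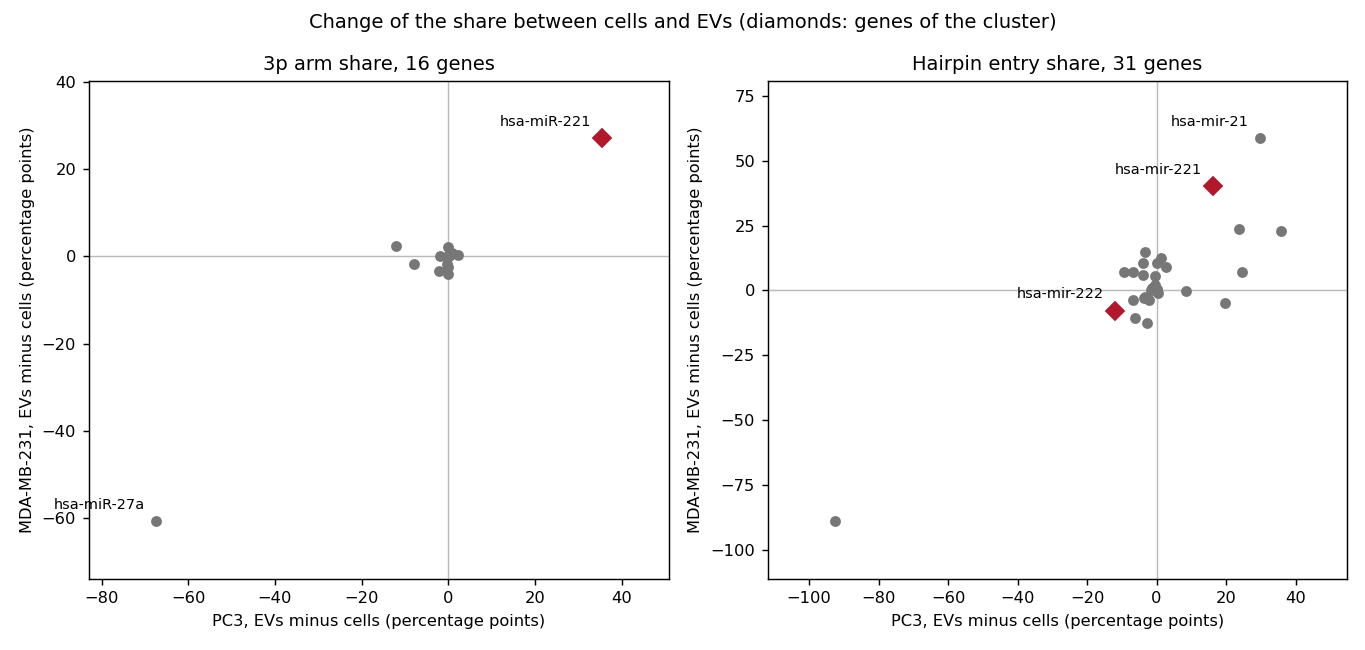
Change of the 3p arm share (left, 16 genes) and of the hairpin share (right, 31 genes) from cells to EVs in percentage points, PC3 on the horizontal and MDA-MB-231 on the vertical axis, 1 point per gene and diamonds for the cluster. The miR-221 diamond stands at 35.4 and 27.1 points, while 14 other genes lie between -12.1 and 2.34 points in PC3 and between -4.0 and 2.42 in MDA-MB-231, and hsa-miR-27a is in the opposite corner.

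Among the 3p arms, which share their seed, hsa-miR-222-3p was by far the more frequent in these read counts. It took 97.9% of the reads of both 3p arms in each PC3 cell library, 84.5% to 97.8% in PC3 EVs, 96.3% and 96.8% in MDA-MB-231 cells, and 87.1% to 96.2% in MDA-MB-231 EVs. The mean difference, EVs minus cells, was -4.15 points and did not pass the threshold (exact permutation p = 0.0536, adjusted p = 0.0714). On the log2 odds scale the same test gave -1.08 (exact permutation p = 0.0332). The difference between the lines was 1.92 points (exact permutation p = 0.0895, adjusted p = 0.102). Without the second MDA-MB-231 cell library these differences were -4.03 and 1.99 points.

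The entries whose log2(CPM + 1) was most like that of hsa-miR-222-3p over 15 libraries, among 108 entries present in at least 12 and without the library of 153 reads, were hsa-mir-222 (r = 0.92), hsa-miR-30d-5p (r = 0.91), hsa-miR-423-3p (r = 0.88), hsa-miR-92a-3p (r = 0.84) and hsa-miR-103a-3p (r = 0.75). Of the cluster, hsa-miR-221-5p came at place 10 (r = 0.66), hsa-miR-221-3p at place 16 (r = 0.55) and hsa-mir-221 at place 70 (r = 0.00). For hsa-miR-221-3p the most alike were hsa-miR-7-5p (r = 0.84), hsa-miR-181b-5p (r = 0.80), hsa-miR-181a-5p (r = 0.76), hsa-miR-92a-3p (r = 0.75) and hsa-let-7i-5p (r = 0.75). The libraries share lines and materials and each value is a share of its library, so these coefficients are descriptions.

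Other miRNAs of the X chromosome, which carries the cluster, numbered 46 entries, of which 39 were tested. Between EVs and cells 1 was called in each line, 2.56% of the list beside 8.83% of all entries in PC3 and 3.89% in MDA-MB-231, with a list median of -2.23 beside -1.61 and of 0 beside 0.88. Both MDA-MB-231 medians include the second cell library, which had 153 reads and 36 entries above 0. They depend on the method, since over 67 entries of at least 1000 CPM the median there was 4.43 with limma, -0.32 with edgeR and -0.97 with DESeq2. In PC3 it was hsa-miR-500a-3p, with 9 reads and a mean of 65 CPM in cells and 0 reads in all 6 EV libraries, where 0 reads allows 205.3 to 1196 CPM in a library, so a level below that of cells was not detectable in any of them. In MDA-MB-231 it was hsa-miR-361-3p (-2.68, limma adjusted p = 0.0475), which was -2.45 without the second cell library (limma adjusted p = 0.143) and lost its call with 14 of 16 libraries left out in turn. Between the EVs of the lines 5 of 39 were called, 12.8% beside 7.24% of all entries, 3 of them higher in PC3 and 2 lower. hsa-miR-500a-5p and hsa-mir-500b, both higher in PC3, had 65 and 66 reads in PC3 EVs and 21 and 22 in MDA-MB-231 EVs. Whether the same reads were counted under both names was not tested, so the 5 may not be separate. hsa-miR-224-5p, lower in PC3, had 2 reads in PC3 EVs and 197 in MDA-MB-231 EVs, and lost its call with 10 of 16 libraries left out. hsa-miR-361-3p was higher in PC3 EVs (3.23, limma adjusted p = 0.000819), at a mean of 27456 CPM against 2625, and kept its call with every library left out. hsa-miR-503-5p had 1 read in the 6 PC3 EV libraries and 23 in those of MDA-MB-231, where its mean of 309 CPM lies inside the 205.3 to 1196 CPM that 0 reads allows in a PC3 EV library. Between UC and exoRNeasy EVs 2 were called, 5.13% beside 7.77%. hsa-miR-361-3p was higher in UC EVs (2.54, limma adjusted p = 0.0207), a call lost with 7 of 16 libraries left out. hsa-let-7f-2 had 25 reads and a mean of 344 CPM in UC EVs and 0 reads in the 4 exoRNeasy libraries, where 0 reads allows 614 to 1514 CPM in a library, so a difference was not detectable there.

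Of the miRNAs named with the cluster in epithelial to mesenchymal transition and invasion, 27 of 31 entries were tested. Between EVs and cells the list median was -1.65 in PC3, beside -1.61 for all entries, and 0.16 in MDA-MB-231, beside 0.88. Both MDA-MB-231 medians again include the second cell library. In each line 1 entry was called, 3.7% of the list, beside 8.83% of all entries in PC3 and 3.89% in MDA-MB-231. In PC3 it was hsa-miR-125b-1-3p, with 16 reads and a mean of 129 CPM in cells and 0 reads in all 6 EV libraries, where 0 reads allows 205.3 to 1196 CPM in a library, above the level of cells, so no size of change is given. In MDA-MB-231 it was the hairpin hsa-mir-21, higher in EVs, which had 0 reads in the second cell library and without that library differed by 4.07 (limma adjusted p = 3.41e-06). With both cell libraries the difference was 10.26 (limma adjusted p = 0.0475), and the call was lost with 6 of 16 libraries left out. hsa-miR-21-5p, often raised in tumours, was lower in PC3 than in MDA-MB-231 EVs (-1.86, limma adjusted p = 0.000437), and kept that call with every library left out. Between the cells it was -1.70 (limma adjusted p = 0.0369) and -1.36 without the second MDA-MB-231 cell library (limma adjusted p = 0.0199), and that call was lost with 4 of 16 libraries left out. It was also lower in UC than in exoRNeasy EVs (-1.19, limma adjusted p = 0.0315), a call lost with 6 of 16 left out. It was the only listed entry called in each of these comparisons, 3.7% of the list. Beside that, 7.24% of all entries were called between the EVs of the lines, 4.24% between cells and 7.77% between UC and exoRNeasy EVs.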

How the data were processed

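Small RNA libraries of cells and EVs were sequenced, and the authors deposited a table of miRNA values named TPM. The deposited values are CPM, since each library sums to 1000000 and every value was a whole multiple of 1 read (within 0.1 read), with no correction for length. The submitters' notes name STAR and hg38, with versions not stated in any source used. The circRNA and snoRNA tables were not used here.

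Reads per library (153 to 97408) were recovered from these multiples. Levels were compared on log2(CPM + 1) by limma 3.58.1 (R 4.3.3; trend and robust), with 8 group means over all 16 libraries, entries of at least 1 CPM in 2 libraries (566 of 915) and Benjamini-Hochberg adjustment over all of them. The design had assumed TPM, and the same test served CPM. Shares within a gene, with at least 5 reads in the denominator, were compared by two-sided exact permutation within lines or materials (Python 3.11.15, scipy 1.17.1), with exact Clopper-Pearson 95% intervals. A count of 0 was given an upper limit of 3 reads. Intervals and limits cover counting error only. edgeR 4.0.16 and DESeq2 1.42.0 on the recovered reads, other pseudocounts, filters and scalings, a replicate block, array weights, single EV methods and each library left out were alternatives. The steps were tested on simulated data.

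Named genes were the cluster, the 5 entries most like hsa-miR-222-3p and hsa-miR-221-3p, and genes whose shares met a pattern counted above. Some called entries of the X chromosome list, and those of the epithelial to mesenchymal transition and invasion list, were also named. Lists of epithelial, blood and serum, muscle and fibroblast, and neuron miRNAs were summed. The members and lists were chosen with earlier results of these data known. Libraries of a group differed beyond counting noise except the MDA-MB-231 cell libraries (chi-square p = 0.398), where 153 reads stood behind the second. They were kept as separate libraries because their depths differ, and tested results that use the second are also given without it. Sequences came from RefSeq (GRCh38.p14), where 438 of 508 mature names and 5 of the 6 cluster entries had one, and genes from GENCODE 44.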

Additional observations from a re-analysis of the deposited data

Results flagged for a closer look

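Among the 6 cluster entries, screened over every pair of materials, 2 had effects of the same contrast that went opposite ways in the lines. Every library of one line moved one way and every library of the other the opposite way. How many of all entries show such a pattern was not counted, and with 2 libraries per group some can arise by chance. The differences between the lines were not tested. They are given as log2 ratios of pooled reads per library total, with exact 95% intervals that cover counting error only.

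For hsa-mir-221, exoRNeasy EVs against cells gave -1.95 (-3.83 to -0.58) in PC3 and 2.81 (2.50 to 3.11) in MDA-MB-231, a difference of 4.76. Against next-gen ATPS EVs the same EVs gave -1.04 (-3.10 to 0.63) and 2.36 (1.96 to 2.77), a difference of 3.40. Against UC EVs they gave -1.19 (-3.13 to 0.26) and 2.62 (2.33 to 2.90), a difference of 3.81. The PC3 exoRNeasy libraries held 4 hsa-mir-221 reads in all, so both of the last PC3 intervals include 0. For next-gen ATPS EVs against cells the ratios were -0.91 (-1.79 to -0.14) and 0.45 (0.04 to 0.85), a difference of 1.36, and the second MDA-MB-231 cell library held 0 of these reads.

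For hsa-miR-221-3p, exoRNeasy EVs against next-gen ATPS EVs gave 1.21 (0.13 to 2.31) in PC3 and -1.04 (-1.85 to -0.30) in MDA-MB-231, a difference of -2.25. Against UC EVs they gave 1.12 (0.26 to 1.92) and -0.92 (-1.67 to -0.25), a difference of -2.04. Each line had 19 reads of this entry in its exoRNeasy libraries.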

How the results depend on the processing

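Directions and calls of hsa-mir-222 between EVs and cells held in both lines with every library left out in turn, and so did those of hsa-miR-222-3p, but without a filter on low values, with array weights or with UC EVs alone some of these calls were lost, and the number of entries called over the table moved with many settings. Between EVs and cells, the 3p share of miR-221, the hsa-miR-222-3p share of its gene and the share of the cluster kept direction and call with every library left out, on the log2 odds scale and at minimum depths of 1 and 20 reads. Entries of the cluster whose sign turned were not called in the fit as reported. Calls lost or gained under a setting are listed below for hsa-miR-222-3p, and calls lost by the other entries are given with their results. Under edgeR and DESeq2 the table moved as a whole too. For 67 entries the mean was at least 1000 CPM. Their median log2 difference between MDA-MB-231 EVs and cells was 4.43 with limma, -0.32 with edgeR and -0.97 with DESeq2. Between PC3 and MDA-MB-231 cells it was 1.31, 0.33 and 0.38, and between UC and exoRNeasy EVs -0.14, 0.59 and 1.36. The causes of these changes were not tested.

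With a pseudocount of 10, 4 entries between the lines in their EV-to-cell difference and 1 between next-gen ATPS and UC EVs were called. With a pseudocount of 100, 35 entries between MDA-MB-231 EVs and cells, 7 between the lines in their EV-to-cell difference, 65 between PC3 and MDA-MB-231 EVs, 1 between next-gen ATPS and UC EVs and 25 between next-gen ATPS and exoRNeasy EVs were called. With no filter, 10 entries between PC3 EVs and cells, 6 between MDA-MB-231 EVs and cells, 0 between the lines in their EV-to-cell difference, 0 between PC3 and MDA-MB-231 cells, 15 between PC3 and MDA-MB-231 EVs, 3 between next-gen ATPS and exoRNeasy EVs and 1 between UC and exoRNeasy EVs were called. No filter also ended calls for hsa-miR-222-3p (-2.08, adjusted p = 0.154) between PC3 EVs and cells, hsa-miR-222-3p (-1.99, adjusted p = 0.486) between MDA-MB-231 EVs and cells, hsa-miR-222-3p (1.13, adjusted p = 0.846) between next-gen ATPS and exoRNeasy EVs and hsa-miR-222-3p (1.60, adjusted p = 0.447) between UC and exoRNeasy EVs. With a filter of 10 CPM in 4 libraries, 15 entries between PC3 EVs and cells, 2 between the lines in their EV-to-cell difference, 8 between PC3 and MDA-MB-231 cells, 7 between next-gen ATPS and exoRNeasy EVs and 29 between UC and exoRNeasy EVs were called. With scaling to mature names, 7 entries between the lines in their EV-to-cell difference and 1 between next-gen ATPS and UC EVs were called. Scaling to mature names also gave calls for hsa-miR-222-3p (-1.30, adjusted p = 0.00125), hsa-miR-221-3p (-2.0, adjusted p = 0.00984) and hsa-miR-221-5p (-2.04, adjusted p = 0.00489) between PC3 and MDA-MB-231 EVs, and ended that of hsa-miR-221-5p between MDA-MB-231 EVs and cells (-2.07, adjusted p = 0.0655). Scaling to mature names also turned the sign of hsa-miR-221-5p (0.00047) between PC3 and MDA-MB-231 cells, hsa-miR-221-3p (0.18) between next-gen ATPS and exoRNeasy EVs and hsa-miR-221-3p (0.13) between UC and exoRNeasy EVs. With quantile normalization, 44 entries between MDA-MB-231 EVs and cells and 9 between the lines in their EV-to-cell difference were called. Quantile normalization also turned the sign of hsa-mir-222 (0.33) and hsa-miR-222-3p (1.66) between the lines in their EV-to-cell difference, hsa-miR-222-3p (0.0064) between PC3 and MDA-MB-231 EVs, hsa-mir-221 (-0.41) between next-gen ATPS and UC EVs, hsa-miR-221-3p (0.20) between next-gen ATPS and exoRNeasy EVs and hsa-mir-221 (0.32), hsa-miR-221-5p (0.30) and hsa-miR-221-3p (0.11) between UC and exoRNeasy EVs. With edgeR, 39 entries between MDA-MB-231 EVs and cells, 37 between PC3 and MDA-MB-231 cells, 2 between next-gen ATPS and UC EVs, 4 between next-gen ATPS and exoRNeasy EVs and 27 between UC and exoRNeasy EVs were called. edgeR also ended calls for hsa-miR-222-3p (-1.50, adjusted p = 0.0632) between MDA-MB-231 EVs and cells and hsa-miR-222-3p (1.58, adjusted p = 0.149) between next-gen ATPS and exoRNeasy EVs. edgeR also turned the sign of hsa-mir-222 (0.40), hsa-miR-222-3p (0.63) and hsa-miR-221-5p (0.80) between PC3 and MDA-MB-231 cells, hsa-mir-221 (-0.44) and hsa-miR-221-3p (-0.40) between next-gen ATPS and UC EVs, hsa-miR-221-3p (0.32) between next-gen ATPS and exoRNeasy EVs and hsa-mir-221 (0.22), hsa-miR-221-5p (0.45) and hsa-miR-221-3p (0.72) between UC and exoRNeasy EVs. With DESeq2, 22 entries between next-gen ATPS and UC EVs and 2 between next-gen ATPS and exoRNeasy EVs were called. DESeq2 also ended calls for hsa-miR-222-3p (1.85, adjusted p = 0.104) between next-gen ATPS and exoRNeasy EVs. DESeq2 also gave calls for hsa-miR-222-3p (-1.51, adjusted p = 0.0362) between next-gen ATPS and UC EVs. DESeq2 also turned the sign of hsa-mir-222 (0.40), hsa-miR-222-3p (0.60) and hsa-miR-221-5p (0.83) between PC3 and MDA-MB-231 cells, hsa-mir-221 (-0.99) and hsa-miR-221-3p (-1.002) between next-gen ATPS and UC EVs, hsa-mir-221 (0.054) and hsa-miR-221-3p (0.58) between next-gen ATPS and exoRNeasy EVs and hsa-mir-221 (1.04), hsa-miR-221-5p (1.27) and hsa-miR-221-3p (1.58, adjusted p = 0.0305) between UC and exoRNeasy EVs. With the replicate block, 13 entries between MDA-MB-231 EVs and cells, 11 between PC3 and MDA-MB-231 cells and 7 between next-gen ATPS and exoRNeasy EVs were called. The replicate block also ended calls for hsa-miR-222-3p (1.13, adjusted p = 0.0577) between next-gen ATPS and exoRNeasy EVs. With array weights, 90 entries between PC3 EVs and cells, 5 between MDA-MB-231 EVs and cells, 2 between PC3 and MDA-MB-231 cells, 75 between PC3 and MDA-MB-231 EVs, 13 between next-gen ATPS and UC EVs, 28 between next-gen ATPS and exoRNeasy EVs and 68 between UC and exoRNeasy EVs were called. Array weights also ended calls for hsa-miR-222-3p (-1.99, adjusted p = 0.205) between MDA-MB-231 EVs and cells. With next-gen ATPS EVs alone, 33 entries between PC3 EVs and cells, 9 between MDA-MB-231 EVs and cells, 2 between the lines in their EV-to-cell difference and 8 between PC3 and MDA-MB-231 EVs were called. With UC EVs alone, 30 entries between PC3 EVs and cells, 7 between MDA-MB-231 EVs and cells and 13 between PC3 and MDA-MB-231 EVs were called. UC EVs alone also ended calls for hsa-miR-222-3p (-0.998, adjusted p = 0.278) between MDA-MB-231 EVs and cells. With exoRNeasy EVs alone, 20 entries between PC3 and MDA-MB-231 EVs were called. ExoRNeasy EVs alone also turned the sign of hsa-mir-222 (0.36), hsa-miR-222-3p (0.66) and hsa-miR-221-3p (1.25) between the lines in their EV-to-cell difference and hsa-miR-222-3p (0.18) and hsa-miR-221-3p (0.057) between PC3 and MDA-MB-231 EVs. With the cluster left out of the total, 5 entries between the lines in their EV-to-cell difference were called. The cluster left out of the total also ended calls for hsa-miR-222-3p (1.17, adjusted p = 0.0698) between next-gen ATPS and exoRNeasy EVs. The cluster left out of the total also turned the sign of hsa-miR-222-3p (0.044) and hsa-miR-221-3p (0.057) between the lines in their EV-to-cell difference and hsa-mir-221 (-0.041) and hsa-miR-221-3p (-0.0049) between next-gen ATPS and UC EVs.

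EVs of a single method against cells allow 36 arrangements and no exact permutation p below 0.05556. The 3p share of miR-221 then differed by 40.2 (next-gen ATPS), 27.98 (UC) and 25.4 (exoRNeasy) points, the hsa-miR-222-3p share of its gene by 11.9, 10.7 and 5.13 points (exact permutation p = 0.1111 for exoRNeasy), and the share of the cluster by -21.7, -18.6 and -24.3 points. On the log2 odds scale, hsa-miR-222-3p among the 3p arms passed the threshold between EVs and cells (-1.08, exact permutation p = 0.0332) and between the lines (0.74, exact permutation p = 0.0108).

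With each library left out in turn, 6 to 81 entries were called between PC3 EVs and cells, 8 to 72 between MDA-MB-231 EVs and cells, 1 to 99 between the lines in their EV-to-cell difference, 3 to 93 between PC3 and MDA-MB-231 cells, 20 to 89 between PC3 and MDA-MB-231 EVs, 0 to 27 between next-gen ATPS and UC EVs, 2 to 39 between next-gen ATPS and exoRNeasy EVs and 1 to 81 between UC and exoRNeasy EVs. Between PC3 EVs and cells, the log2 differences ran for hsa-miR-221-5p from -3.93 to -3.29 and hsa-mir-221 from -1.25 to -1.14. Between MDA-MB-231 EVs and cells, the log2 differences ran for hsa-miR-221-5p from -2.73 to -2.57 and hsa-mir-221 from 1.01 to 12.96. Between the lines in their EV-to-cell difference, the log2 differences ran for hsa-miR-221-3p from -0.37 to 0.21, hsa-mir-221 from -14.15 to -2.20 and hsa-miR-222-3p from -0.27 to 0.094. Between PC3 and MDA-MB-231 cells, the log2 differences ran for hsa-mir-221 from -0.56 to 11.40. Between PC3 and MDA-MB-231 EVs, the log2 differences ran for hsa-miR-221-3p from -1.43 to -1.12, hsa-miR-221-5p from -1.64 to -0.998 and hsa-mir-221 from -2.92 to -2.59. Between next-gen ATPS and UC EVs, the log2 differences ran for hsa-miR-221-3p from -0.19 to 0.28 and hsa-mir-221 from -0.13 to 0.15. Between next-gen ATPS and exoRNeasy EVs, the log2 differences ran for hsa-miR-221-3p from -0.33 to 0.14, hsa-miR-221-5p from -1.48 to -0.52 and hsa-miR-222-3p from 0.90 to 1.36. Between UC and exoRNeasy EVs, the log2 differences ran for hsa-miR-221-3p from -0.35 to 0.068, hsa-miR-221-5p from -0.80 to 0.16, hsa-miR-222-3p from 1.40 to 1.79 and hsa-mir-222 from 0.95 to 1.41. In percentage points, the difference ran from -7.08 to 3.84 for the hsa-miR-221-3p share between the lines, from -4.57 to -3.19 for hsa-miR-222-3p among the 3p arms between EVs and cells and from 0.905 to 2.94 for the same share between the lines, which turned, passed or missed the threshold with the library left out.

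No pairing of the libraries by replicate number was seen: over 28 pairs of groups the correlation of deviations was between -0.086 and 0.087. With libraries as small as 153 reads, counting noise could hide a pairing, so this check cannot exclude one. Apart from the changes given above, the replicate block changed no call of a cluster entry.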
